A study of Mus musculus with 2 samples.

Results

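The cells described here were the dividing type 1 conventional dendritic cells (cDC1) of wild type (WT) mouse spleen, taken as the WT cells to which the study's own clustering gave the number 6. They numbered 797 of the 12224 WT cells, or 6.52% (exact Clopper-Pearson 95% interval 6.09 to 6.97%), among 24343 cells in both libraries of the series. The clusters were built from the transcripts of these same cells, so differences in transcripts between clusters are given as a description without a test.

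Conventional dendritic cells (cDC) arise from bone marrow precursors that enter the spleen through the blood and go on dividing there. The cDC1 lineage depends on the transcription factors IRF8, BATF3 and ID2, takes up material from dying cells and presents it to CD8+ T cells, whereas cDC2 carry SIRPA and often CD11b or CD4 and are best known for priming CD4+ T cells. A dividing cell first loads the MCM helicase onto its DNA, copies the DNA in S phase, and then builds a spindle and separates its chromosomes under the control of cyclin B and CDK1 in G2 and M phase.

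The study used CITE-seq, which reads transcripts and antibody-derived tags from the same cell. The WT library came from wildtype C57BL/6 mice and the other from Batf3-/- mice, which lack BATF3 in all their cells; both sets of mice were female and 8 weeks old. Spleens of 6 mice of a genotype were pooled into 1 library, the experiment was performed once, and spleen cells depleted of T and B cells were sorted as live MHCII+ CD11c+ cells. With 1 library per genotype and cells that share it, there was no replicate error. All intervals below are 95% intervals that cover counting error only.

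Cluster 6 was set against WT cluster 4 (2202 cells), which held cDC1 that were mostly in G1, and against WT clusters 5 and 7 (663 and 496 cells, 1159 together), which held dividing cDC2. Cluster 0 (3176 WT cells), a cluster of cDC2 mostly in G1, served as the resting counterpart of clusters 5 and 7. A level is the share of a group's summed unique molecular identifiers (UMIs) that fell on a gene, in UMIs per 1000000 UMIs of the group (CPM).

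The dividing cDC1 held 15641681 UMIs, with a median of 19599 UMIs (range 2307 to 32600) and 3912 genes per cell. The median was 15398.5 UMIs in cluster 4, 9919 in cluster 5, 13143.5 in cluster 7 and 6648 in cluster 0. The study removed cells with more than 5000 genes, and 155 of the 797 cells (19.4%) lay above 4500 genes, against 3.50% in cluster 4 and 2.59% in clusters 5 and 7. Of the groups compared cluster 6 lay closest to this limit, and cells beyond it were not analysed here. Of 56 cell barcodes that both libraries held, 2 belonged to WT cluster 6.

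The labels of the cells and their cDC1 genes went together, which is in part fixed, since clusters and labels were both assigned from transcripts. Irf8, the transcription factor that sets the cDC1 fate, was at 1895 CPM (1874 to 1917), the 3rd highest of 19 WT clusters with at least 50 cells. Xcr1, the receptor for the chemokine XCL1, was at 397 CPM (387 to 407) and Naaa, a lysosomal amidase, at 941 CPM (926 to 956), each 2nd among these clusters after cluster 4. Id2, an inhibitor of E proteins that cDC1 need, was at 977 CPM (962 to 993) and ranked 7th, so it marked the lineage less sharply. The deposited reference labels called 795 of the 797 cells dendritic cells, and the finer labels called 742 (93.1%) CD8+ dendritic cells and 45 (5.65%) dendritic cells without CD8, CD4 and CD11b.

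Markers of other cell types were low. Summed over each marker list, the level in the dividing cDC1 was 26.5 CPM for B cells, 1.98 CPM for T cells, 1.73 CPM for NK cells, 0.767 CPM for neutrophils and 8.95 CPM for erythroid cells. Genes of monocytes and macrophages summed to 267 CPM, of which Lyz2 made up 231 CPM, against 402 CPM in cluster 4. Genes of plasmacytoid dendritic cells summed to 206 CPM, nearly all of it Bst2, Tcf4 and Ccr9, and Siglech was at 1.85 CPM. A doublet caller marked 57 of the 797 cells (7.15%) and 10.0% of cluster 4. It marked 1.21% of cluster 5, 5.85% of cluster 7, 0.0945% of cluster 0 and 3.77% of the whole WT library. The 57 had a median of 24617 UMIs, against 19387.5 in the other cells, and summed cDC2 genes of 1825 CPM against 462 CPM. The calls were made from the same transcripts, so this contrast is in part fixed. They cannot tell a doublet from a cDC1 that holds cDC2 transcripts.

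**Figure D1:**
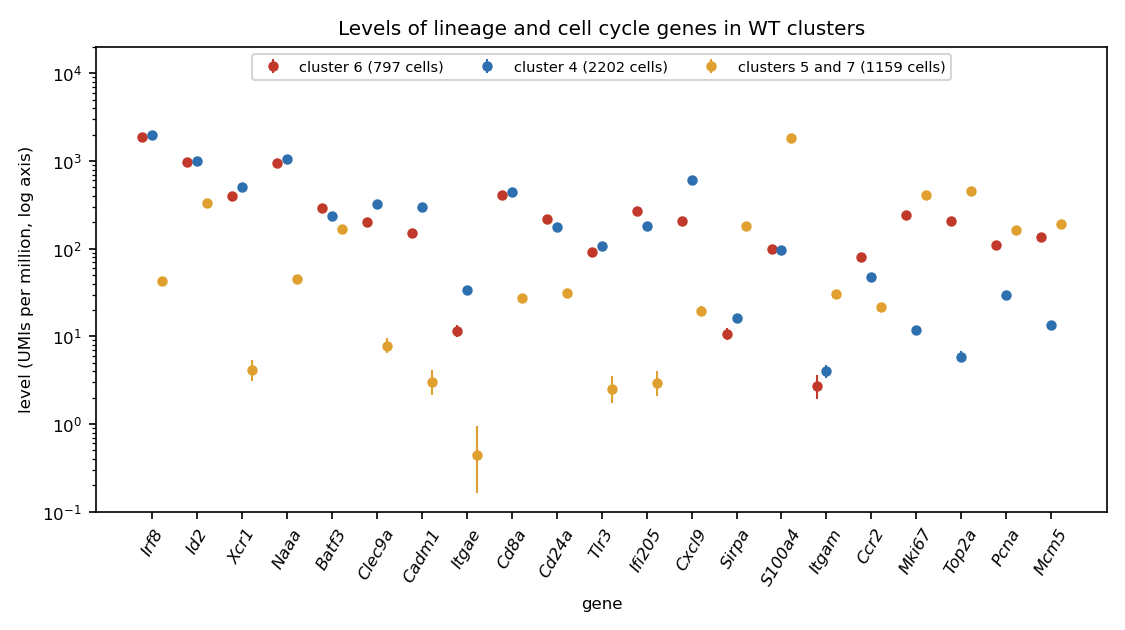
Level in CPM (log axis) of named genes in WT cluster 6, cluster 4 and clusters 5 and 7, with points for groups and bars for 95% counting intervals. Irf8, Id2, Xcr1 and Naaa lie close together in clusters 6 and 4, with Irf8 at 1895 and 1970 CPM, while Mki67 and Top2a of cluster 6 lie toward clusters 5 and 7.

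Dividing cDC1 were first compared with the resting cDC1 of cluster 4. Of 2500 genes whose levels in the groups averaged 50 CPM or more, 146 (5.84%) were at least 2-fold higher and 32 (1.28%) at least 2-fold lower in cluster 6, and the median log2 ratio over all of them was 0.12. Ratios close to that median are therefore near the shift of all genes. Levels are shares of UMIs, and cells of cluster 6 held more UMIs than those of cluster 4 (medians 19599 and 15398.5). A lower level below thus need not mean fewer UMIs per cell, which were not compared with cluster 4. Counts over a gene list below include members under this minimum level unless stated, for which these shares are no background.

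Among these 2500 genes the 10 highest ratios were those of the following genes. Pclaf, which binds the replication clamp PCNA, was at 334 CPM in cluster 6 and 4.04 CPM in cluster 4, a log2 ratio of 6.37 (6.13 to 6.63). Top2a, the topoisomerase that untangles copied chromosomes, was at 208 against 5.85 CPM. Birc5, a subunit of the chromosomal passenger complex, was at 191 against 5.62 CPM, and Cdca8 of the same complex at 133 against 5.005 CPM. The other genes in this group were the histone genes Hist1h1b and Hist1h2ap, Spc24 of the kinetochore, the proliferation marker Mki67 (245 against 11.8 CPM), the microtubule regulator Stmn1 and the DNA ligase Lig1. Histone messages mostly lack a poly-A tail, so a library primed on poly-A reads them only in part.

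All 40 genes of the mitosis list were at least 2-fold higher in cluster 6 than in cluster 4, with a median log2 ratio of 4.80, and their summed level was 3204 CPM (3176 to 3232) against 281 CPM (275 to 286). Of these genes 12 reached the minimum level. The 4 cyclins and partners that drive entry into mitosis stood at 57.9 against 0.556 CPM for Ccna2, 46.5 against 0.819 CPM for Ccnb1, 113 against 10.2 CPM for Ccnb2 and 96.3 against 3.31 CPM for Cdk1. Kinases of the spindle were low in both groups but far apart, with Plk1 at 20.7 against 0.351 CPM and Aurkb at 55.4 against 3.37 CPM. The condensin subunit Smc4 had the smallest ratio of the list (211 against 78.5 CPM, log2 1.43).

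Of 38 genes of DNA licensing and replication, 37 were at least 2-fold higher in cluster 6 and the remaining one, Rfc1, a subunit of the clamp loader, had a log2 ratio of 0.94 (0.83 to 1.05). The median was 2.90 and the summed level 2605 CPM (2580 to 2630) against 454 CPM (447 to 461). Of the 12 at or above the minimum level, 11 were at least 2-fold higher. The 6 subunits of the MCM helicase ran from 63.2 CPM (Mcm4) to 169 CPM (Mcm3) in cluster 6 and from 8.60 to 19.8 CPM in cluster 4. The licensing factor Cdc6 was at 20.1 against 0.556 CPM, and Uhrf1, which binds hemimethylated DNA and recruits the maintenance methyltransferase, at 67.4 against 2.75 CPM. Pcna, the sliding clamp, was at 109 against 29.9 CPM.

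Genes that supply nucleotides followed, with 18 of 20 at least 2-fold higher and a median log2 ratio of 1.65. Of the 8 at or above the minimum level, 6 were at least 2-fold higher. Rrm2, the regulated subunit of ribonucleotide reductase, was at 93.4 against 1.43 CPM, and Tyms, thymidylate synthase, at 118 against 9.37 CPM. Dctpp1, which removes faulty dCTP, was at 269 against 77.8 CPM. The genes short of 2-fold were Atic, of purine synthesis (log2 0.58), and Mthfd2, of the mitochondrial folate pathway (94.0 against 83.4 CPM, log2 0.17).

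Upstream regulators of the cycle were less uniform. Of 27 cyclins, kinases, E2F factors and inhibitors, 17 were at least 2-fold higher in cluster 6 and none at least 2-fold lower. Of the 6 that reached the minimum level, 3 were higher, 2 of them at least 2-fold, and 3 were lower, with a median log2 ratio of -0.07, and the summed level of the list had a log2 ratio of -0.06 (-0.07 to -0.04). Ccnd1, the D-type cyclin that growth signals induce, was at 265 CPM in cluster 6 and 232 CPM in cluster 4. Without the cells marked as doublets it was at 241 and 184 CPM. Its partner Cdk4 was at 154 against 48.7 CPM and Ccnd3 at 116 against 57.2 CPM. The inhibitor Cdkn1b (p27) was at 62.8 against 79.6 CPM, and the antiproliferative genes Btg1 and Btg2 were at 452 against 797 CPM and at 609 against 925 CPM. Cdkn2c and Cdkn2d, inhibitors of CDK4 and CDK6, were higher in the dividing cells, at 31.3 against 7.58 CPM and 37.5 against 7.99 CPM.

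Promoters of the mitosis and replication genes were read for letters known from such genes, and 4 promoters are shown because they belong, among genes averaging 50 CPM or more, to the genes with the highest ratios of cluster 6 over 4 in each list that carry the letters upstream of the start. The 250 bases before the RefSeq start site are given 5′ to 3′ along the gene's strand in GRCm38.p6. For Top2a (chr11:99024190-99024439, minus strand) and Mki67 (chr7:135716380-135716629, minus strand) capitals mark TTTGAA or TTCGAA on either strand, the core of the cell cycle homology region (CHR), and CCAAT on either strand. For Mcm7 (chr5:138171884-138172133, minus strand) and Mcm5 (chr8:75109259-75109508, plus strand) capitals mark CCAAT and the E2F letters TTTGGCGC, TTTCCCGC, TTTCGCGC and TTTGCCGC on either strand.
Top2a: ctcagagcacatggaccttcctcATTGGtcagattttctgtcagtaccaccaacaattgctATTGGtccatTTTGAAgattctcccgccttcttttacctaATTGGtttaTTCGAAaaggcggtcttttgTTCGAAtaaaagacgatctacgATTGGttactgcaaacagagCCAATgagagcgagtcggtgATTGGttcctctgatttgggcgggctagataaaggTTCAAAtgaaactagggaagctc
Mki67: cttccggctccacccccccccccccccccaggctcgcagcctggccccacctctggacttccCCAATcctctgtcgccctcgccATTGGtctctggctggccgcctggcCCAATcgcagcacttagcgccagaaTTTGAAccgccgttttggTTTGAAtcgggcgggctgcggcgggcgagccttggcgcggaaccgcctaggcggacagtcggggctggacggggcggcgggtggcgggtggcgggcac
Mcm7: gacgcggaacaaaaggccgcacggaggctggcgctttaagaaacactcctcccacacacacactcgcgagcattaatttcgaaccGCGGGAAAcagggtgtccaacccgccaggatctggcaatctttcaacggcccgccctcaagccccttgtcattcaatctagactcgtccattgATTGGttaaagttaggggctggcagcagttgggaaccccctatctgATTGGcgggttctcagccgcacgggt
Mcm5: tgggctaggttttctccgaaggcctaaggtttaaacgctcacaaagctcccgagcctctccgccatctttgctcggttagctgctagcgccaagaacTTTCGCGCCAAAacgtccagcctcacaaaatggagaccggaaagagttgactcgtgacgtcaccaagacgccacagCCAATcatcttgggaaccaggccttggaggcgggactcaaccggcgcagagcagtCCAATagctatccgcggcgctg

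RefSeq promoters of 300 bases, from 250 before to 50 after the start, were matched for 33 of the 40 mitosis genes (35 promoters) and 30 of the 38 replication genes (38 promoters). CHR letters occurred in 28 of 35 mitosis promoters (80.0%), in 21.1% of the replication promoters and in 19.2% of all 32851 mouse promoters. E2F letters showed the opposite preference, with 36.8% of the replication promoters, 8.57% of the mitosis promoters and 2.26% of all promoters. CCAAT occurred in 85.7%, 60.5% and 37.4%, and CHR and CCAAT together in 77.1%, 15.8% and 7.52%. The CCAAT letters are not part of any of the CHR or E2F letters. These are matches of letters and not measured binding.

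As a share of UMIs, the cDC1 program was present in the dividing cells at slightly lower levels than in resting cDC1. Of 28 cDC1 genes, 24 were lower in cluster 6 than in cluster 4, with a median log2 ratio of -0.39, and 2 of them by at least 2-fold. The summed level was 8991 CPM (8944 to 9038) in cluster 6, 11040 CPM (11004 to 11075) in cluster 4 and 1269 CPM (1250 to 1288) in clusters 5 and 7. In this sum dividing cDC1 stood closer to resting cDC1 than to dividing cDC2.

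The transcription factors Irf8 and Id2 were nearly level between the cDC1 clusters. Irf8 was at 1895 against 1970 CPM, a log2 ratio of -0.06 (-0.08 to -0.04), and Id2 at 977 against 997 CPM. Batf3 was higher in the dividing cells, at 288 against 238 CPM, a log2 ratio of 0.27 (0.22 to 0.32).

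Clec9a, the receptor for actin of dead cells, was at 203 CPM in cluster 6 and 325 CPM in cluster 4, a log2 ratio of -0.68 (-0.73 to -0.62). Cadm1, an adhesion molecule of cDC1, was at 151 against 298 CPM, a log2 ratio of -0.98 (-1.04 to -0.91). Itgae, which encodes CD103, was at 11.5 against 33.6 CPM, and Xcr1 at 397 against 509 CPM. The scavenger receptor Cd36 and the C-type lectin Cd207 were at 85.3 against 140 CPM and at 34.6 against 56.9 CPM. In contrast Cd8a was nearly level (408 against 442 CPM), and Cd24a, a small adhesion glycoprotein, was higher at 219 against 177 CPM.

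Cxcl9, a chemokine that draws T cells through CXCR3, was at 206 against 608 CPM and was the cDC1 gene with the largest ratio in this direction (log2 -1.56). Ppt1, a lysosomal thioesterase, was at 1113 against 1604 CPM and Fuca1, a lysosomal fucosidase, at 301 against 553 CPM. Ifi205, an interferon-inducible gene of cDC1, went the other way at 272 against 180 CPM.

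Shares of cells with a UMI gave the same order once every cell was thinned to 5000 UMIs, which left out 8 cells of cluster 6, 49 of cluster 4, 16 of cluster 5 and 28 of cluster 7. Xcr1 was found in 77.6% of the dividing cDC1 (74.5 to 80.4%) and 87.7% of cluster 4, against a background of 1.55% and 2.35% in clusters 5 and 7, which should lack it. Clec9a was found in 60.1% (56.6 to 63.5%) against 77.9%, with 3.40% and 4.06% in clusters 5 and 7. Cadm1 was found in 42.6% (39.1 to 46.1%) against 70.2%, and Itgae in 4.44% against 14.6%. Batf3 was found in 77.9% against 68.6%, but clusters 5 and 7 also had it in 55.6% and 47.9% of cells, so its share separates the lineages poorly. Without thinning, 94.6% of the dividing cDC1 had a UMI of Xcr1 and 92.8% one of Clec9a.

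The 10 lowest ratios of cluster 6 over cluster 4 among genes at or above 50 CPM included Cxcl9 and the following genes. Apoe, the lipid carrier, was at 35.4 against 172 CPM, and Apol7c, an apolipoprotein L family member of cDC1, at 274 against 849 CPM. Slfn5 (27.8 against 97.6 CPM), Serpinb6b (66.7 against 214 CPM), Trib1 (45.3 against 127 CPM) and Etv3 (47.4 against 131 CPM) followed, along with the less studied loci Gm34084 and 2310031A07Rik. The lowest ratio, for the globin gene Hbb-bs (4.03 against 113 CPM, log2 -4.81), rested on few cells, since 1 cell of cluster 4 held 54.6% of that cluster's Hbb-bs UMIs and 10 cells held 91.6%. Without the cell with the most UMIs in each group its log2 ratio was -3.77.

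Genes of the response to tissue dissociation were lower in cluster 6 for 12 of 13 members, with a median log2 ratio of -0.34, for example Junb at 280 against 457 CPM and Zfp36 at 199 against 331 CPM. The exception was the chaperone Hspa8, at 2888 against 2194 CPM. Their part in the other differences was not tested.

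**Figure D2:**
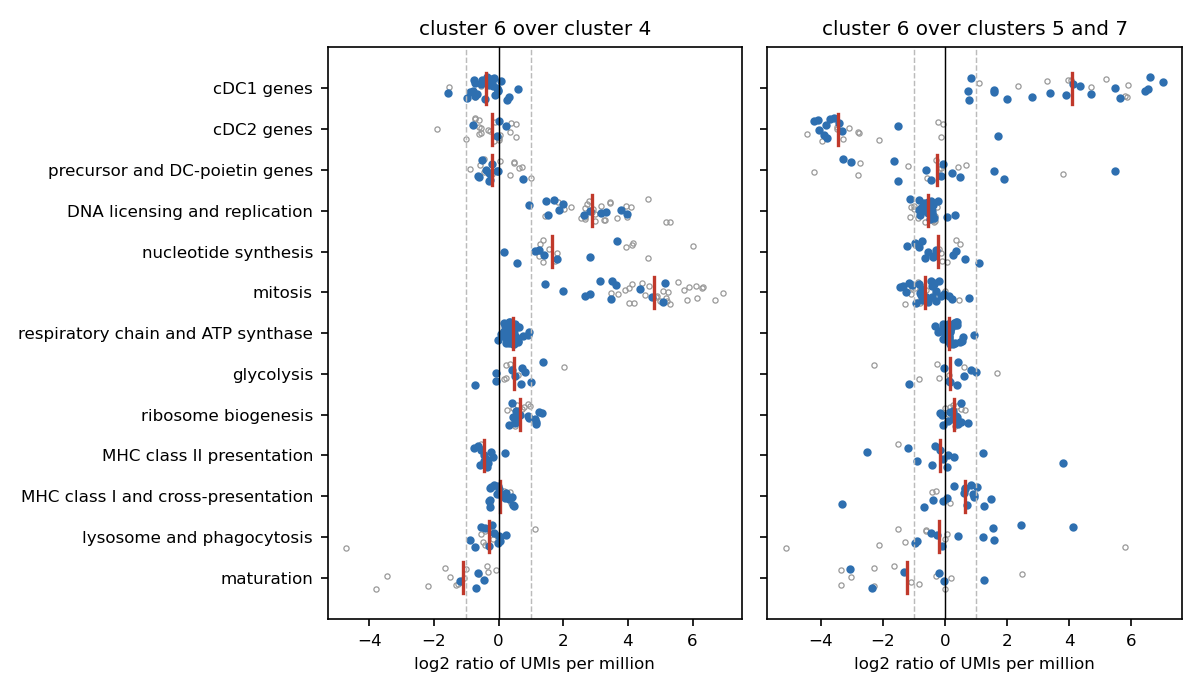
Log2 ratio of the level in WT cluster 6 over cluster 4 (left) and over clusters 5 and 7 (right) for each member of the gene lists, filled where the gene reached the minimum level and open otherwise, with a bar at the median of each list. Over cluster 4 the mitosis and replication lists lie far above 0 (medians 4.80 and 2.90) and the cDC1 list a little below 0 (median -0.39), while over clusters 5 and 7 the cDC1 and cDC2 lists separate (medians 4.08 and -3.44).

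Against the dividing cDC2 of clusters 5 and 7, the dividing cDC1 differed in lineage genes, though not in these alone. Mitosis genes also differed when clusters 5 and 7 were taken apart, as given below. Of 2719 genes at or above the same minimum level, 129 (4.74%) were at least 2-fold higher and 240 (8.83%) at least 2-fold lower in cluster 6. All 28 cDC1 genes were higher, 25 of them by at least 2-fold, with a median log2 ratio of 4.08. Of the 18 at or above the minimum level, 15 were at least 2-fold higher. Of 24 cDC2 genes, 23 were lower, 20 of them by at least 2-fold, with a median of -3.44. Of the 12 at or above the minimum level, 11 were at least 2-fold lower.

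Rab7b, a small GTPase of endosomes, had the highest ratio at 259 against 1.98 CPM (log2 7.03, 6.48 to 7.63). Xcr1 was at 397 against 4.11 CPM and Irf8 at 1895 against 42.4 CPM, a log2 ratio of 5.48 (5.36 to 5.60). Ifi205 (272 against 2.94 CPM), Gcsam (103 against 1.18 CPM), Pdia5, a disulfide isomerase (114 against 2.20 CPM), Cadm1, the nucleotide receptor P2ry14 (188 against 4.11 CPM) and Clec9a completed this end. Jchain, the joining chain of antibodies, ranked among them with 148.5 against 2.06 CPM, but 1 cell, marked as a doublet, held 2299 of the 2323 UMIs of cluster 6 (99.0%). Without the cell with the most UMIs in each group its log2 ratio was -0.31.

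Genes of the cDC2 lineage were low in both cDC1 clusters, and several were lower still without the cells marked as doublets. Calls and levels rest on the same transcripts, so this fall is in part fixed. S100a4, a calcium-binding protein, was at 98.9 CPM in cluster 6 and 97.5 CPM in cluster 4, against 1832 CPM in clusters 5 and 7. Sirpa, the inhibitory receptor for CD47, was at 10.7 CPM and 16.4 CPM against 181 CPM, and Ltb, a lymphotoxin subunit, at 41.7 CPM and 71.3 CPM against 595 CPM. Dtx1, a target of Notch signalling, was at 9.78 against 161 CPM. Without the cells marked as doublets, S100a4 was at 61.1 CPM in cluster 6 and 33.7 CPM in cluster 4, Sirpa at 6.35 and 7.00 CPM, Ltb at 25.1 and 45.2 CPM, and Dtx1 at 4.33 and 3.37 CPM. Ifitm1, Tgm2, Clec4a2, Cd7, Tmem176a and the unnamed locus AC140186.1 had log2 ratios between -4.25 and -3.69. Clec12a, an inhibitory lectin on the cDC2 list, was the exception at 134 CPM in cluster 6, 138 CPM in cluster 4 and 41.3 CPM in clusters 5 and 7.

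Of 23 precursor genes with a ratio to cluster 4, 15 were lower and 1 was at least 2-fold higher, with a median log2 ratio of -0.19. Of the 11 that reached the minimum level 10 were lower, none by 2-fold, with a median of -0.28. The exception was Ccr2, described below, with a log2 ratio of 0.75. Flt3, the receptor for the growth factor of all cDC, was at 138 against 168 CPM, and Kit, the stem cell factor receptor, at 63.2 against 82.7 CPM. Cd34, the one past 2-fold, was at 2.94 against 1.46 CPM, and Siglech and Ly6c2, known from earlier precursors, were at 1.85 against 1.32 CPM and 10.4 against 6.70 CPM.

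Of 18 chemokine receptors and adhesion molecules with a ratio to cluster 4, 7 were higher and 11 lower in the dividing cDC1, with a median log2 ratio of -0.23. Ccr2, the receptor for the chemokine CCL2, was at 80.3 CPM (75.9 to 84.9) in cluster 6, 47.8 CPM in cluster 4 and 21.7 CPM in clusters 5 and 7, and was found in 24.8% (21.9 to 28.0%), 13.9%, 4.64% and 5.56% of cells of clusters 6, 4, 5 and 7 at 5000 UMIs. Itgb7, an integrin subunit for gut homing, was at 167 CPM against 109 CPM in cluster 4 and was level with clusters 5 and 7 (169 CPM). In contrast Ccr7, which guides mature cells to lymph nodes, was at 9.14 CPM against 41.9 CPM and 44.7 CPM.

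Genes of maturation were lower than in cluster 4 without exception, in 18 of 18 members, with a median log2 ratio of -1.10. Only 4 of them reached the minimum level of 50 CPM, of which 1 was at least 2-fold lower, with a median of -0.68. Cd83, a marker of activated dendritic cells, was at 105 against 237 CPM, and Cd40, the receptor for T cell help, at 19.5 against 46.8 CPM. Relb, an NF-kB subunit, was at 32.4 against 65.0 CPM and Il12b, a subunit of IL-12, at 0.895 against 9.72 CPM. Several of these genes were low in both clusters, and few cells held them, with 10 cells carrying 29.1% of the Ccr7 UMIs of cluster 4 and 63.6% of those of cluster 6. Summed over the list, the level was 801 CPM in cluster 6 and 1381 CPM in cluster 4, a log2 ratio of -0.79 (-0.81 to -0.76). In cDC2 it was 1446 CPM in clusters 5 and 7 and 2268 CPM in cluster 0, a log2 ratio of -0.65 (-0.67 to -0.63), while 9 members were higher and 9 lower, with a median of -0.15.

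Genes of MHC class II presentation were lower in 12 of 13 members with a ratio, with a median log2 ratio of -0.44, a range of -0.75 to 0.21 among those at the minimum level and none past 2-fold. Cd74, the invariant chain, was at 16520 against 21339 CPM, and H2-Eb1 at 6725 against 9887 CPM. Ciita, the master regulator of these genes, was at 322 against 484 CPM. H2-DMb1, part of the peptide editor, was the exception at 667 against 578 CPM.

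MHC class I and cross-presentation genes did not share a direction, with 11 of 20 higher and 9 lower and a median log2 ratio of 0.06, below the 0.12 of all genes tested. The class I chains H2-K1 and H2-D1 were lower, at 1346 against 1604 CPM and 1778 against 2190 CPM. The chaperones of the loading complex were higher, with Calr at 1149 against 832 CPM, Pdia3 at 624 against 499 CPM and Canx at 196 against 143 CPM, as was the immunoproteasome subunit Psmb8 at 1451 against 1084 CPM. Of the lysosome and phagocytosis list 15 of 20 were lower, with a median of -0.29, and of Toll-like receptors and their adaptors 14 of 15, with a median of -0.44, among them Tlr11 (47.4 against 80.3 CPM) and Tlr3 (90.9 against 107 CPM), which sense profilin of parasites and double-stranded RNA. At the minimum level 8 of 12 genes of the lysosome list were lower (median -0.18). All 3 of the Toll-like list at that level were lower (median -0.25), and none of either list by 2-fold.

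Genes of energy and protein supply were higher by small amounts. Of 37 genes of the respiratory chain and ATP synthase with a ratio, 36 were higher in cluster 6 than in cluster 4, none by 2-fold, with a median log2 ratio of 0.43, and the largest were Ndufa5 of complex I (103 against 53.1 CPM) and Cycs, cytochrome c (540 against 289 CPM). Of 16 glycolysis genes 13 were higher, with a median of 0.47, and the 2 past 2-fold were the monocarboxylate transporter Slc16a1 (log2 2.04) and Tpi1 at 181 against 70.0 CPM. Of the 10 at the minimum level 7 were higher, 1 of them by at least 2-fold, with a median of 0.61. Gapdh was at 1252 against 629 CPM, while Aldoa was lower at 96.3 against 159 CPM. All 24 genes of ribosome biogenesis were higher, 5 of them by at least 2-fold, with a median of 0.65. Ncl, nucleolin, was at 575 against 264 CPM and Nop56, a core protein of small nucleolar particles, at 154 against 60.6 CPM.

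**Figure D3:**
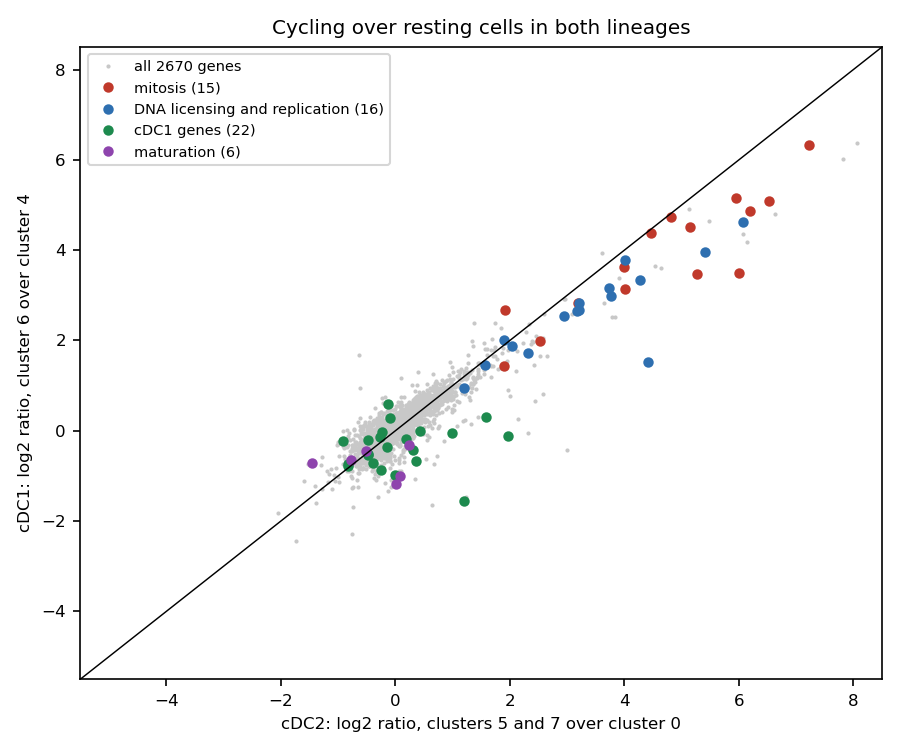
Log2 ratio of dividing over resting cells in the cDC2 lineage (clusters 5 and 7 over cluster 0, horizontal) and in the cDC1 lineage (cluster 6 over cluster 4, vertical), with a point for each tested gene and members of the lists coloured. Mitosis and replication genes lie high in both lineages, most of them below the line of equal ratios with clusters 5 and 7 pooled, and the 6 maturation genes shown lie below 0 in cDC1.

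The step from resting to dividing cells was then set side by side in both lineages, in comparisons that share no cells. Mitosis genes had a median log2 ratio of 4.80 in cDC1 and 5.21 in cDC2, and replication genes 2.90 and 3.17. The medians were 0.43 and 0.37 for the respiratory chain, 0.47 and 0.62 for glycolysis, 0.65 and 0.45 for ribosome biogenesis and -0.44 and -0.24 for MHC class II. For 4 of 2670 genes (0.15%) the ratio in cDC1 was at least 2-fold larger than that in cDC2, and for 46 (1.72%) it was at least 2-fold smaller. These values pool clusters 5 and 7, and the balance of the 2 directions depended on which cluster stood for dividing cDC2, with 30 genes larger and 27 smaller for cluster 5 alone and 10 and 90 for cluster 7 alone. Compared directly, all 40 mitosis genes were higher in cluster 6 than in cluster 5 (median log2 ratio 2.43) and all 40 lower than in cluster 7 (median -1.58).

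The lowest differences were those of Lyz2, Hells, Cxcl9, Marcksl1, Ube2c and Clec12a. Lyz2, lysozyme, was at 231 CPM in dividing and 312 CPM in resting cDC1 but at 152 CPM in dividing and 18.98 CPM in resting cDC2, a difference in log2 ratios of -3.44. Single cells held 50.1% of the Lyz2 UMIs of cluster 5 and 33.5% of those of cluster 7. Hells, a chromatin remodeller of the replication list, was at 108 and 37.7 CPM in cDC1 and at 86.0 and 4.03 CPM in cDC2, so that resting cDC1 held more of it than resting cDC2. Ube2c, which marks cyclins for destruction, was at 182 and 16.1 CPM in cDC1 and at 248 and 3.90 CPM in cDC2. The highest differences were those of Jchain, carried by the cell named above, S100a10 (95.6 and 49.8 CPM against 104 and 159 CPM), Emb, Fam111a, Bex6 and Lair1.

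Most of the dividing cDC1 were called in S phase. The deposited phases were S in 474 cells (59.5%, 56.0 to 62.9%), G2M in 310 (38.9%, 35.5 to 42.4%) and G1 in 13 (1.63%, 0.871 to 2.77%). In cluster 4, 92.0% of cells were called G1. The dividing cDC2 clusters differed in phase, with 97.0% of cluster 5 in S, and with 33.9% of cluster 7 in S and 66.1% in G2M. In 338 of the 797 cells (42.4%) both the S and the G2M score lay above 0. Phases recomputed from the study's own 40 S genes and the mitosis list matched the deposited ones in 775 cells (97.2%). Both rest on the same counts and S genes, so this match is in part fixed.

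Cell cycle genes followed the phases that were called from such genes, and 62 of 2594 genes (2.39%) were at least 2-fold higher and 24 (0.925%) at least 2-fold lower in G2M than in S cells of cluster 6. The summed mitosis list was at 1239 CPM in S and 6268 CPM in G2M cells, and the summed replication list at 3392 CPM and 1475 CPM. Ccnb1 was at 5.38 and 110 CPM and Cdc20, an activator of the anaphase complex, at 6.56 and 183 CPM. E2f1 ran the other way with 57.1 and 7.65 CPM, as did Cdc6 with 31.1 and 4.23 CPM.

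The lineage program was flat across these phases. Summed cDC1 genes were at 9085 CPM (9024 to 9147) in S and 8925 CPM (8850 to 9000) in G2M cells, and summed cDC2 genes at 538 CPM and 599 CPM. Irf8 was at 1859 and 1965 CPM, and Batf3 at 295 and 277 CPM. A few members did differ, with Itgae at 15.5 and 5.86 CPM and Cxcl9 at 241 and 156 CPM. The median log2 ratio of G2M over S over all 2594 genes was 0.07, and of the MHC class I list 14 of 20 members were higher in G2M cells, with a median of 0.20 and with H2-K1 at 1076 and 1750 CPM, and ribosome biogenesis was lower in 23 of 24 members, with a median log2 ratio of -0.39. The 13 cells called G1 differed, with cDC1 genes at 6674 CPM and cDC2 genes at 1613 CPM, and their number is small.

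**Figure D4:**
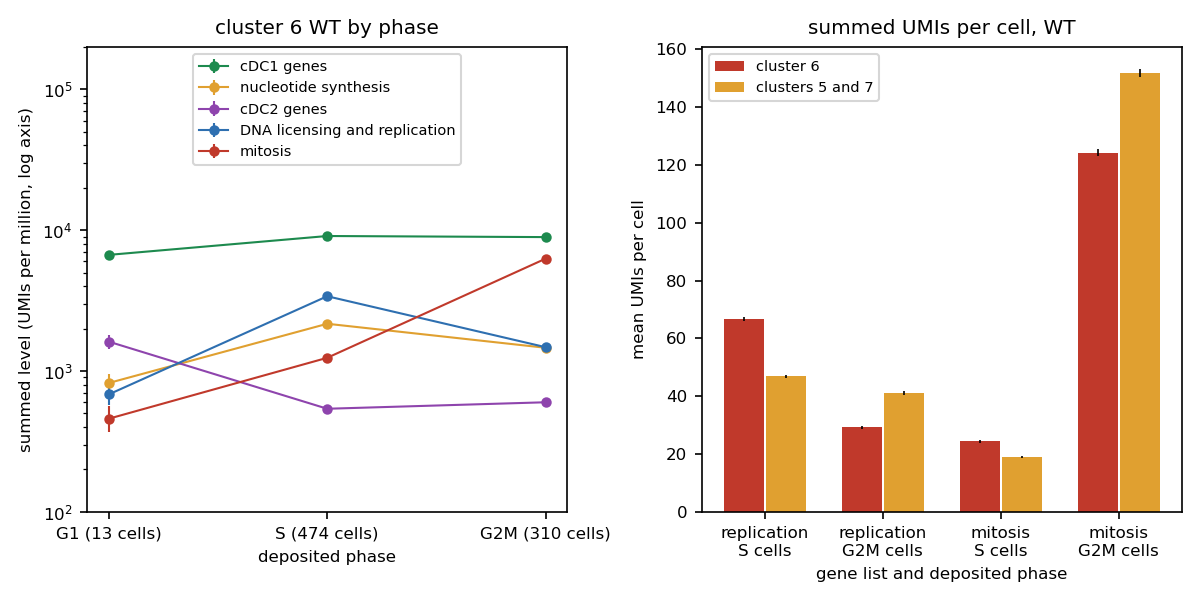
Left, summed level in CPM (log axis) of gene lists in WT cluster 6 by deposited phase, with bars for 95% counting intervals; right, mean UMIs per cell of the replication and mitosis lists in S and in G2M cells of cluster 6 and of clusters 5 and 7. The cDC1 list stays near 9000 CPM from S to G2M while the mitosis list goes from 1239 to 6268 CPM.

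Against dividing cDC2 of clusters 5 and 7 pooled and in the same phase, dividing cDC1 gave a smaller share of their UMIs to replication and mitosis genes. Over all genes at the minimum level the median log2 ratio of cluster 6 over clusters 5 and 7 was -0.08 in S cells, with 217 of 2676 at least 2-fold lower, and -0.09 in G2M cells, with 340 of 2812. In S cells 35 of 38 replication genes were lower in cluster 6 than in clusters 5 and 7, with a median log2 ratio of -0.32, and in G2M cells 37 of 38, with a median of -1.03. Summed genes of nucleotide synthesis did not follow in S cells, at 2162 CPM in cluster 6 and 2143 CPM in clusters 5 and 7, but did in G2M cells, at 1460 and 2212 CPM. For the 40 mitosis genes the counts were 35 lower in S (median -0.50) and 37 lower in G2M (median -0.93). Against cluster 5, 97.0% of it in S, the direction in S cells of cluster 6 turned for summed mitosis genes, at 1239 against 733 CPM. Summed replication genes were nearly level there, at 3392 against 3443 CPM. Depth per cell went with the pooled comparison, since S cells of cluster 6 had a median of 19616 UMIs and those of clusters 5 and 7 one of 10505, and G2M cells 19723.5 and 13993.

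Counted as mean UMIs per cell, the order of S cells turned, with 66.6 UMIs of replication genes in cluster 6 (65.8 to 67.3) against 46.8 (46.4 to 47.3), and 24.3 UMIs of mitosis genes against 18.8. In G2M cells it stayed, with 29.2 against 41.2 UMIs of replication genes and 124 against 152 UMIs of mitosis genes. Of the 330 G2M cells of clusters 5 and 7, 328 were of cluster 7. Cluster 10, which the study also annotated as mitotic cDC2, was not part of the comparison, so these values do not cover all dividing cDC2 in G2M. The direction in S cells therefore depends on whether a level is taken in CPM or as UMIs per cell. For mitosis genes in CPM it also depends on which cDC2 cluster is compared.

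Ccnd1 separated the dividing cells of the lineages. It was at 265 CPM (257 to 273) in cluster 6 and at 1027 CPM in clusters 5 and 7, a log2 ratio of -1.95, and 61.5% of thinned cells of cluster 6 held it against 98.0% and 87.2% in clusters 5 and 7. The resting cells were at 232 CPM in cluster 4 and 1301 CPM in cluster 0, and of the dividing cDC2 cluster 5 was at 1280 CPM and cluster 7 at 758 CPM. Cdkn2d and Cdk2 were also lower in cluster 6, at 37.5 against 88.9 CPM and 24.2 against 56.0 CPM. For Cdkn2d the direction turned against cluster 5 alone, the S phase cluster, with a log2 ratio of 1.34. Cycs (540 against 282 CPM), Dctpp1 (269 against 173 CPM) and Calr (1149 against 482 CPM) were higher.

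The dividing cDC1 varied among themselves. At 5000 UMIs a cell held a median of 45 UMIs of cDC1 genes, with 30 at the 10th and 62 at the 90th percentile and a range of 1 to 99, and a median of 2 UMIs of cDC2 genes with a highest value of 38. Across 789 cells, which share 1 library, the summed cDC1 genes had a Pearson correlation of 0.05 with the S score and -0.05 with the G2M score, and of -0.44 (Spearman -0.27) with summed cDC2 genes. Without the cells marked as doublets the last values were -0.42 (Spearman -0.21), and without thinning -0.16 (Spearman 0.0062), so the relation by rank was not seen without thinning. The Pearson correlations with the S and G2M scores were 0.22 and 0.11 without thinning.

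Antibody tags were not used to build the clusters. The tag rows carry no names in the files, and 4 of 11 could be matched to a gene of the antibody panel because row and gene were each other's best correlate over all cells, with Pearson correlations of 0.67 for Cd8a, 0.58 for Cd24a, 0.36 for Cd4 and 0.26 for Itgam. The Itgam row correlated almost as well with Sirpa (0.26), and the Cd24a row with Xcr1 (0.55) and Clec9a (0.51). The 7 other rows were not used. The names below are those of the matched genes, and since transcripts of these cells chose the rows, a tag that follows its gene across clusters is in part fixed by the matching.

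The Cd8a tag was lower on dividing than on resting cDC1. Its median was 80 counts per cell in cluster 6 (quartiles 48 and 132) and 122 in cluster 4 (79 and 165), against 40, 39 and 41 in clusters 5, 7 and 0. Above 64 counts, the 95th percentile of cluster 0, lay 59.7% of cluster 6, 81.9% of cluster 4, 7.24% of cluster 5 and 8.67% of cluster 7. Within cluster 6 the median was 69 in S and 93 in G2M cells (11.2% and 14.8% of a cell's tags), and the tag correlated with Cd8a UMIs across the 797 cells at 0.66.

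The Cd24a tag did not separate the cDC1 clusters, with a median of 138 in cluster 6 (quartiles 106 and 175) and 131 in cluster 4, against 38 in clusters 5 and 7. Within cluster 6 its median was 145.5 in S and 130 in G2M cells, or 22.6% and 19.2% of a cell's tags, the opposite order to the Cd8a tag. The Itgam tag was at 34 in clusters 6 and 4 and at 47 and 49 in clusters 5 and 7, and the Cd4 tag at 25, 27, 34 and 33. Median tags in all were 646 per cell in cluster 6, 694 in cluster 4 and 526 in clusters 5 and 7.

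**Figure D5:**
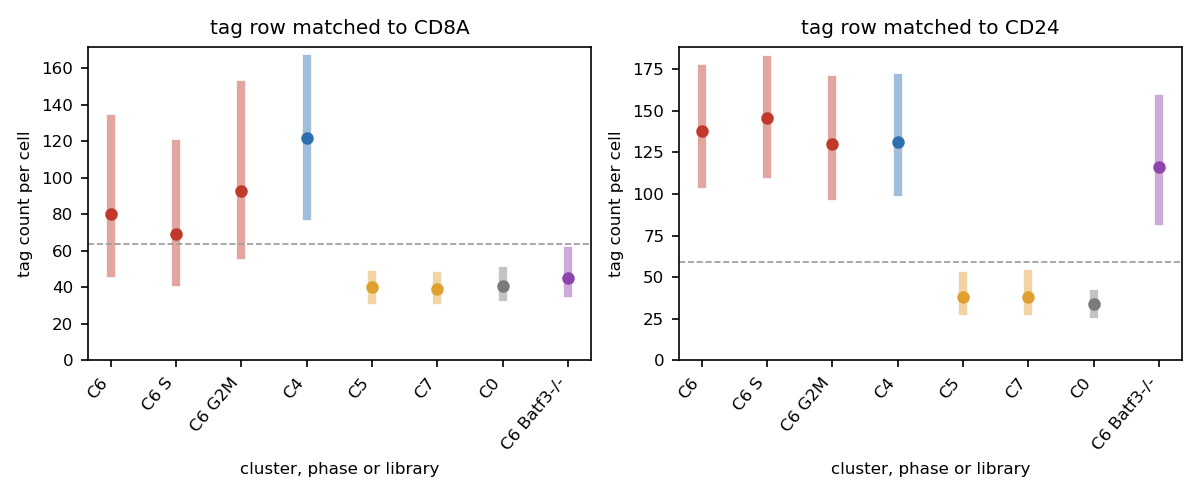
Counts per cell of the tag rows matched to Cd8a (left) and Cd24a (right) in WT cluster 6 (C6), its S and G2M cells, WT clusters 4, 5, 7 and 0 and Batf3-/- cluster 6, with points at the median, bars from the lower to the upper quartile and a dashed line at the 95th percentile of cluster 0. The Cd8a tag of cluster 6 (median 80) lies between cluster 4 (122) and clusters 5 and 7 (40 and 39), and the Cd24a tag lies level with cluster 4.

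Cluster 6 of the Batf3-/- library held 727 cells, and the values of both libraries are given side by side, since 1 library per genotype allows no test. Batf3 was at 288 CPM in WT and at 0.446 CPM (0.164 to 0.970, 6 UMIs) in Batf3-/- cells, as the genotype labels say. Of 2585 genes, 43 (1.66%) were at least 2-fold higher and 50 (1.93%) at least 2-fold lower in Batf3-/- cells. The cells were also called in other phases, with 26.0% in G1, 48.7% in S and 25.3% in G2M against 1.63%, 59.5% and 38.9% in WT, and with S and G2M cells alone the counts were 38 and 55.

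Cell cycle genes differed less between the genotypes than lineage genes. Cells of both genotypes were placed in this cluster from the same transcripts. Their likeness in cell cycle genes is therefore in part fixed, and the contrast with lineage genes was not tested. The paper proposes that they clustered together through genes of the mitochondrial inner membrane and of nuclear chromosome parts, likely tied to active cycling. None of 40 mitosis and 38 replication genes differed by 2-fold, with median log2 ratios of Batf3-/- over WT of -0.04 and -0.08. The direction turned when S and G2M cells alone were compared, where 34 of 40 mitosis and 34 of 38 replication genes were higher in the Batf3-/- cells, again none by 2-fold, with medians of 0.26 and 0.18. In G2M cells the summed mitosis list was at 6268 CPM in WT and 7931 CPM in Batf3-/-, and the replication list at 1475 and 1859 CPM. Of 28 cDC1 genes 21 were at least 2-fold lower in the Batf3-/- cells, with Xcr1 at 397 CPM in WT and 45.7 CPM in Batf3-/-, Naaa at 941 and 98.8 CPM and Cadm1 at 151 and 12.3 CPM. Of the 19 cDC1 genes at or above the minimum level, 13 were at least 2-fold lower. The paper already reports list members such as Naaa, Xcr1, Cadm1, Cd8a, Tlr3, Tlr11 and Cd36 as lower in these Batf3-/- cells. The list was chosen with such results known, so these counts are in part fixed. Irf8 was at 1895 and 941 CPM, while Id2 (977 and 935 CPM) and Cd24a (219 and 224 CPM) were nearly level.

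Of 24 cDC2 genes 13 were at least 2-fold higher in the Batf3-/- cells, among them Cd209a, a lectin, at 14.9 CPM in WT and 139 CPM in Batf3-/-, Itgam at 2.69 and 24.6 CPM and S100a4 at 98.9 and 270 CPM. Of the 9 cDC2 genes at or above the minimum level, 7 were at least 2-fold higher. The paper reports Ltb, Cybb, S100a4, Cd209a, Tmem176a and Tmem176b of this list as higher in the same comparison. These counts are therefore in part fixed as well. Doublets were not called in the Batf3-/- library, so their part in these levels is not known. Ccr2 was at 80.3 and 156 CPM. The Cd8a tag had a median of 80 in WT and 45 in Batf3-/- cells, and the Cd24a tag of 138 and 116. Batf3-/- cells held fewer tags in all, with a median of 537 against 646, and as a share of a cell's tags the Cd24a tag was at 21.0% in WT and 21.7% in Batf3-/- cells.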

How the data were processed

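CITE-seq was performed on 2 libraries, 1 per genotype. The authors processed the reads in Cell Ranger against the mouse build GRCm38 (mm10) and aggregated the libraries to even their depth. In Seurat 3.0.5 they kept cells with 500 to 5000 genes, at most 20% mitochondrial and 50% ribosomal UMIs. They deposited counts of UMIs per gene and of tags per antibody. The deposited normalized tables are on a natural log scale. Mitochondrial and ribosomal values are deposited as a fraction, and S and G2M values as a score per cell. Clusters (resolution 0.5), labels and phases are the authors' own. Totals recomputed from the counts equalled the deposited ones in 24343 of 24343 cells.

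The cells and gene lists were chosen with earlier results of these data known. Levels are summed UMIs per 1000000 UMIs (CPM) with exact Poisson 95% intervals, and ratios carry an interval from the binomial split of the UMIs. Genes called had a mean of at least 50 CPM over the groups and a ratio of at least 2-fold. Genes named are members of the lists, the 10 highest and 10 lowest ratios of each comparison with cluster 6 and the 6 highest and 6 lowest differences between lineages. Precursor and cDC1 lists share 2 genes, Irf8 and Id2. For shares and correlations each cell was thinned to 5000 UMIs. Doublets were called with Scrublet (expected rate 0.05) in the WT library only, and none were removed. Python 3.11.15 was used with scipy 1.17.1, scanpy 1.11.5, pandas 2.3.3, matplotlib 3.10.9 and numpy 2.4.6. Calculations were tested on simulated data. Alternatives were other minimum levels, median-of-ratios scaling, means of per-cell shares, single clusters, matched phases, doublets left out and other thinning.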

Additional observations from a re-analysis of the deposited data

How the results depend on the processing

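The share of cluster 6, its phase shares, the ratios of summed lineage lists between phases and the genotype counts stayed within their intervals or within 1.5 times under the alternatives run. The recomputed phases used the study's own S genes, so the stability of the phase shares is in part fixed. Counts of genes depended on the minimum level. At 20 CPM 303 genes were at least 2-fold higher and 78 lower in cluster 6 than in cluster 4, and 247 and 488 against clusters 5 and 7; with any gene of at least 1 UMI the counts were 1938 and 894, and 1085 and 2615. Lineage differences of 2-fold in either direction numbered 30 and 27 with cluster 5 alone and 10 and 90 with cluster 7 alone, and 2 larger ones with median-of-ratios scaling. Of 2944 alternative values of named genes, 1836 stayed within the counting interval of the reported value, 1097 lay outside it without a change of direction of a gene at least 2-fold apart, and 11, of genes at least 2-fold apart, changed direction. With smaller ratios counted, 133 values changed sign, 107 of them outside the interval. Of these 133, 49 of 255 stood against cluster 5 alone, where 40 of 40 mitosis genes were higher in cluster 6, against 5 of 40 with clusters 5 and 7 pooled. Against cluster 5 alone, the S phase cluster, the log2 ratio was 1.34 for Cdkn2d, 3.70 for Hist1h2ap, 2.65 for Kif11, 2.83 for Nusap1, 2.67 for Prc1, 1.64 for Rrm2, 0.29 for Smc2 and 1.57 for Top2a. Jchain had -0.45 against cluster 4 and -0.43 against clusters 5 and 7 without doublets, and -0.31 against clusters 5 and 7 without the cell with the most UMIs. Alternatives that leave out such a cell, and those in UMIs per cell, were chosen after seeing the data.

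Shares of cells with a UMI moved with depth, to 50.1% for Xcr1, 32.6% for Clec9a, 23.8% for Cadm1 and 15.1% for Ccr2 at 2000 UMIs and to 94.6%, 92.8%, 72.0% and 43.8% without thinning. Without thinning the correlation of summed cDC1 genes was 0.22 with the S score, 0.11 with the G2M score, -0.16 with cDC2 genes and 0.18 with precursor genes other than Irf8 and Id2, where it was -0.17 with thinning. With recomputed phases the log2 ratio of G2M over S was -1.08 for replication and 2.48 for mitosis, and 2.37 for mitosis without doublets. The log2 ratio of median tags in cluster 6 over 4 was -0.39 for Cd8a in normalized values, and 0.10 for Itgam and 0.19 for Cd24a as shares of a cell's tags. No paired analysis was possible because each genotype has 1 library, and no library could be left out.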

Other observations

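The 45 cells of cluster 6 that the reference labels called dendritic cells without CD8, CD4 and CD11b were looked at after their values were seen. Their summed cDC1 genes were at 5872 CPM (5717 to 6031), against 9271 CPM (9222 to 9321) in the 742 cells called CD8+ dendritic cells, and their summed cDC2 genes at 2355 CPM against 435 CPM. Irf8 was at 1187 CPM against 1954 CPM, Xcr1 at 228 CPM against 413 CPM, and Ccr2 at 103 CPM (83.4 to 126) against 76.9 CPM (72.5 to 81.5). The mitosis list was at 2061 CPM against 3253 CPM. The Cd8a tag, which had no part in these labels, had a median of 53 against 81 counts, the Cd24a tag 113 against 139, and the Itgam tag 44 against 33.5. How many of the 45 cells are doublets with cDC2 was not tested.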
